A study of Mus musculus with 14 samples.

Results

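Mouse milk whey is rich in whey acidic protein, encoded by *Wap*, and the cysteine-rich WFDC domain of this protein is shared by a family of small secreted proteins. The family members studied here are *Wap*, *Wfdc18*, *Wfdc3*, *Slpi*, *Wfdc2*, *Wfdc12* and *Wfdc1*. They were chosen by name, with earlier results of these data known. All 7 were found in both deposited expression files, which hold 20515 genes that carry a usable symbol. FPKM is a read level corrected for gene length and scaled by a factor for each library. Of these 7 genes, 3 had an exon FPKM above 1000 in both mice and 1 was above 1 in both mice. The other 3 averaged less than 1.

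Total RNA-seq was carried out on mammary glands at day 10 of lactation (L10) from 2 C57BL/6 mice, and FPKM values were deposited separately for exons and introns. Both mice were wt/Wap-Tbrg4 heterozygotes. Besides a wt allele, each carried a Wap-Tbrg4 allele, in which CRISPR-Cas9 deleted the sequence from the *Tbrg4* promoter to the *Wap* promoter and joined the first exons of both genes, so that *Wap* regulatory elements drive *Tbrg4*. An intact *Wap* gene therefore remained on the wt allele only, and the deposited values do not separate reads of the alleles. The labels number the samples as replicates 1 and 2 and do not state outright that each is a separate animal, although the protocol speaks of mice. There is 1 genotype, 1 tissue and 1 stage among the files, so no test between groups could be made and no effect of the genotype on any member could be measured. The other 12 samples are ChIP-seq libraries and are not analysed here.

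The WFDC domain is a compact fold held together by disulfide bonds, and several proteins that carry it inhibit serine proteases. *Slpi*, the secretory leukocyte protease inhibitor, blocks neutrophil elastase and cathepsin G, and many other members act in epithelial defense. *Wap* is induced in the secretory epithelium during pregnancy by prolactin through the transcription factor STAT5 and is a standard marker of alveolar differentiation. *Wfdc18* encodes an extracellular proteinase inhibitor that is also made by mammary epithelium. *Wfdc2*, known in human medicine as HE4, is made by epithelia of the reproductive tract and airways, *Wfdc12* belongs to the small antibacterial members, and *Wfdc1* encodes a growth-inhibitory protein first described in prostate stroma.

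The promoters of the 3 highly expressed members and of *Slpi* are printed to show what lies directly upstream of genes whose mRNA levels differed by several orders of magnitude, among them the *Wap* promoter that the Wap-Tbrg4 allele retains. Each sequence holds the 250 bases before the RefSeq start on GRCm38.p6, read 5′ to 3′ on the strand of the gene. The interval is chr11:6638650-6638899 (minus strand) for *Wap*, chr11:83708754-83709003 (plus strand) for *Wfdc18*, chr2:164743268-164743517 (minus strand) for *Wfdc3* and chr2:164356508-164356757 (minus strand) for *Slpi*. Capitals mark matches, on either strand, to the motifs named after the sequences.
Wap: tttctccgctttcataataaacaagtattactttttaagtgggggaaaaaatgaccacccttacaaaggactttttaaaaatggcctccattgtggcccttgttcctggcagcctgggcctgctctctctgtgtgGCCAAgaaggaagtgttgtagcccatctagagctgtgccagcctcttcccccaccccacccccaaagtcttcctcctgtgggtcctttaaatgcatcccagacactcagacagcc
Wfdc18: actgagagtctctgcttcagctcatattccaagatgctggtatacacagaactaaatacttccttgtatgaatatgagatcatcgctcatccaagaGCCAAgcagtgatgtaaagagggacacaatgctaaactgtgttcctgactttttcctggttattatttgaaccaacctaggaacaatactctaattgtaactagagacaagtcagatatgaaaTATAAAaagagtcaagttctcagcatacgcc
Wfdc3: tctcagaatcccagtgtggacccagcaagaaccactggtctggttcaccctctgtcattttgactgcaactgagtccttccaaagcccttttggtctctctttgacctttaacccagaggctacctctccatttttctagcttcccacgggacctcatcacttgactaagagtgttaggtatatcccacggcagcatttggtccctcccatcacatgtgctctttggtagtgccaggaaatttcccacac
Slpi: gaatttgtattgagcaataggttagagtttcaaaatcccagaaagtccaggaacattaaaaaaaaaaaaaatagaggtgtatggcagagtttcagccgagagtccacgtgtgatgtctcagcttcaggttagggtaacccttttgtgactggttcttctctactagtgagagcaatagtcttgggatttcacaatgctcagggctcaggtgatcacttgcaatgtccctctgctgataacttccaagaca

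The motifs searched, on both strands, were the STAT5 recognition sequence TTCNNNGAA, the nuclear factor I sequence TTGGC, the TATA box TATAAA and the cAMP response element TGACGTCA. Of 27025 RefSeq promoters of the same 250 bases, 7.18% contained TTCNNNGAA, 41.9% contained TTGGC, 13% contained TATAAA and 1.62% contained TGACGTCA. The *Wap* promoter held GCCAA, the reverse complement of TTGGC, 115 to 111 bases upstream of the start. The same letters occurred 154 to 150 bases upstream of *Wfdc18*, which also carried TATAAA 31 to 26 bases upstream. *Wfdc2*, whose promoter is not printed, held GCCAA 161 to 157 bases upstream. No motif searched occurred in these windows of *Wfdc3*, *Slpi* or *Wfdc12*. Sequences were found for 6 of the 7 members, the other being *Wfdc1*. A match describes the letters in the window and does not show a bound factor.

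The depth of each library was estimated from the low FPKM values, because the value of a short exon or intron multiplied by its length is a whole multiple of what 1 read is worth. One read on 1 kb corresponded to 0.101 FPKM in replicate 1 and 0.197 in replicate 2. This gave about 11940000 and 11280000 exon reads and about 2600000 and 1300000 intron reads in the 2 libraries. The exon reads were thus similar, while 1 read was worth more FPKM in replicate 2. The scaling of the deposited values therefore did not follow the exon reads, and FPKM differences between the mice include it. Whole reads were obtained, within the rounding of the deposited values, for 83.3% of 42 short features in replicate 1. In replicate 2 this was 83.2% of 226, where rounding alone would give 26.5% and 29.4% in the 2 libraries. The depth was picked from many trial values by this same share, so the share is a fitted score and no independent check. The estimates rest on RefSeq lengths, and the 95% intervals given with them (exact Poisson) cover counting error only. Where 2 of these intervals overlap, this does not show that the values agree. All 6 markers of secretory luminal cells listed averaged at least 1 FPKM in exons, compared with 48% of all genes. The highest were *Csn2*, *Lalba* and *Elf5*. All listed fibroblast, macrophage and adipocyte markers met this cut too, so it does not single out luminal cells. Between the mice, 3 of the 6 were more than 2-fold apart, compared with 5.9% of 9845 genes. *Csn2* was higher in replicate 2, and *Krt8* (31.4 and 14.6) and *Krt18* (145.0 and 57.6) were lower. After the correction for exon GC content described below, *Krt8* and *Krt18* were within 2-fold, with log2 ratios of -0.53 and -0.84. *Csn2* remained at 1.87. The deposited exon values of some genes that every cell uses were near 0, such as 0.1 and 0.3 for *Gapdh*, named after its values were seen, so a value of 0 is given as listed at 0.

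*Wap*, the major whey protein gene, was the highest member, with 172935 FPKM in the exons of replicate 1 and 234774 in those of replicate 2. Its mean of 203854 ± 43727 (SD, n = 2) had rank 3 among all genes, and *Wap* ranked 1 in replicate 1 and 3 in replicate 2. *Wfdc18*, the proteinase inhibitor gene, followed with 6804 and 6098, a mean of 6451 ± 499.5 (SD, n = 2) and rank 10 in each mouse. *Wfdc3*, which encodes a protein with several WFDC domains, had 2317 and 2178, a mean of 2248 ± 98.4 (SD, n = 2) and rank 13 in each mouse. The order of these genes was the same in both mice, and the values of no pair among them overlapped. Only 20 genes averaged at least 1000 FPKM in exons (0.0975% of all genes), and *Wap*, *Wfdc18* and *Wfdc3* were among these 20.

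**Figure D1:**
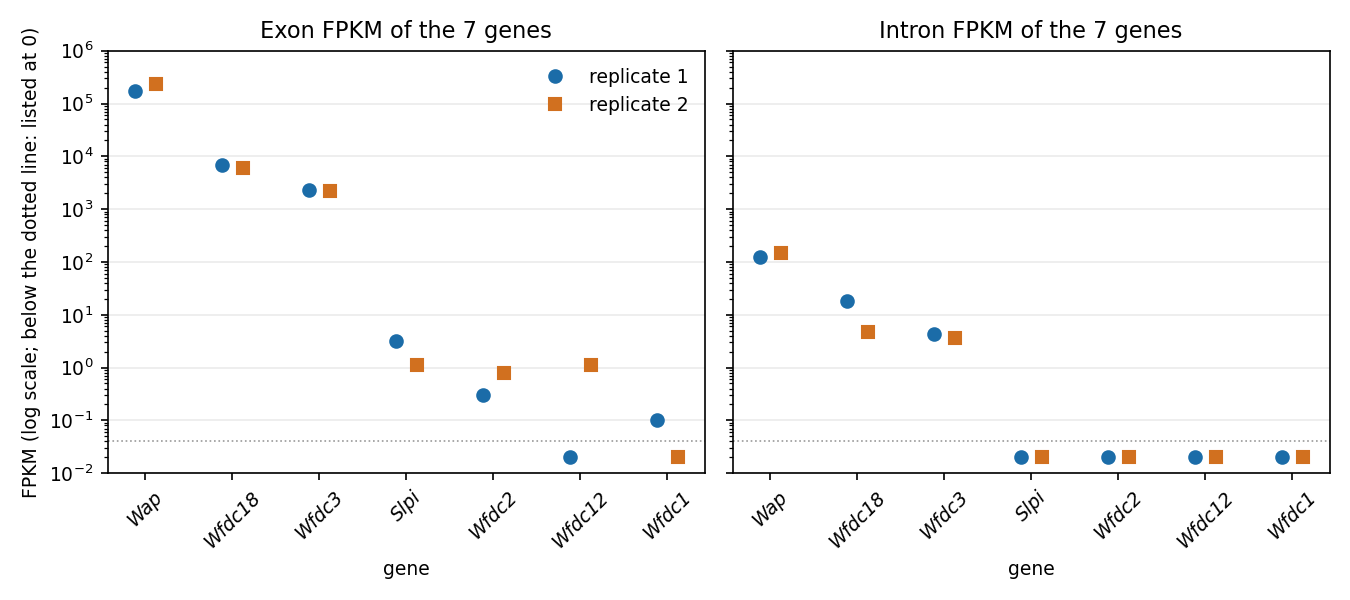
Exon FPKM (left) and intron FPKM (right) of the 7 genes on a log scale, with circles for replicate 1 and squares for replicate 2; points below the dotted line were listed at 0. *Wap*, *Wfdc18* and *Wfdc3* stand above 1000 in exons and above 1 in introns in both mice, and the introns of the other 4 genes were listed at 0.

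The remaining members were low. The leukocyte protease inhibitor gene *Slpi* had exon FPKM of 3.2 and 1.1, a mean of 2.15 ± 1.48 (SD, n = 2) and rank 8004. These values correspond to an estimated 28 reads (18.6 to 40.5) in replicate 1 and 5 reads (1.62 to 11.7) in replicate 2. *Wfdc2* had 0.3 and 0.8, a mean of 0.55 ± 0.354 (SD, n = 2), or about 2 and 3 reads. *Wfdc12* was listed at 0 in replicate 1 and at 1.1 in replicate 2, the latter from about 4 reads. *Wfdc1* had 0.1 in replicate 1, from about 1 read, and was listed at 0 in replicate 2. In replicate 1 the interval of *Slpi*, 2.14 to 4.65 FPKM, lay above those of *Wfdc2* (0.0342 to 1.02), *Wfdc12* (0 to 0.512) and *Wfdc1* (0.00218 to 0.479). With 5 reads or fewer behind every other value, the order among the latter 3 genes, and among all 4 in replicate 2, could not be resolved at this depth. A count of 0 allows up to 3 reads as a one-sided limit, unlike the 2-sided intervals above, or an exon FPKM of 0.416 for *Wfdc12* in replicate 1 and 0.505 for *Wfdc1* in replicate 2. Of the 7 members, 4 averaged at least 1 FPKM in exons, compared with 48% of all genes, and the median over all genes was 0.75.

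On GRCm38, *Wap* occupies positions 6635483 to 6638649 on the minus strand of chromosome 11, with 4 exons (562 bp) and 2605 bp of introns. *Wfdc18* lies far from it on the same chromosome, at 83709004 to 83711360 on the plus strand, with 3 exons (544 bp) and 1813 bp of introns. *Slpi* (164354070 to 164356507, minus strand), *Wfdc2* (164562715 to 164568510, plus strand), *Wfdc3* (164731226 to 164743267, minus strand) and *Wfdc12* (164189231 to 164190558, minus strand) share a cluster on chromosome 2. *Wfdc1* is alone on chromosome 8 at 119666365 to 119688020, plus strand. *Wfdc12* overlaps the antisense gene *A730032A03Rik* and *Wfdc1* overlaps *Gm32352*, and the strand setting of the counting is not given in the sources used here, so their few reads are uncertain as to gene. *Slpi* contains the microRNA gene *Mir7678*. None of the exons of the 7 members had another place in the genome at an identity of at least 95% over at least 80% of its length.

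The chromosome 2 cluster spans 566.9 kb and holds 16 of the WFDC genes examined. Its exon FPKM came almost entirely from *Wfdc3* at one end, which exceeded *Slpi*, the next highest in the cluster by mean, 724-fold in replicate 1 and 1980-fold in replicate 2. Both ratios rest on the few reads of *Slpi*. On chromosome 11, *Wfdc17*, a gene of macrophages and microglia, ends 2734 bp from *Wfdc18*. *Wfdc17* had exon FPKM of 17.3 and 20.5, so that its neighbor *Wfdc18* was 393-fold and 297-fold higher. *Wfdc21*, 35579 bp beyond *Wfdc18*, had 0.9 and 4.5, from about 4 and 10 reads, whose counting intervals (0.25 to 2.35 and 2.16 to 8.27 FPKM) overlapped. High and low WFDC genes thus lay next to each other in both chromosomal groups.

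**Figure D2:**
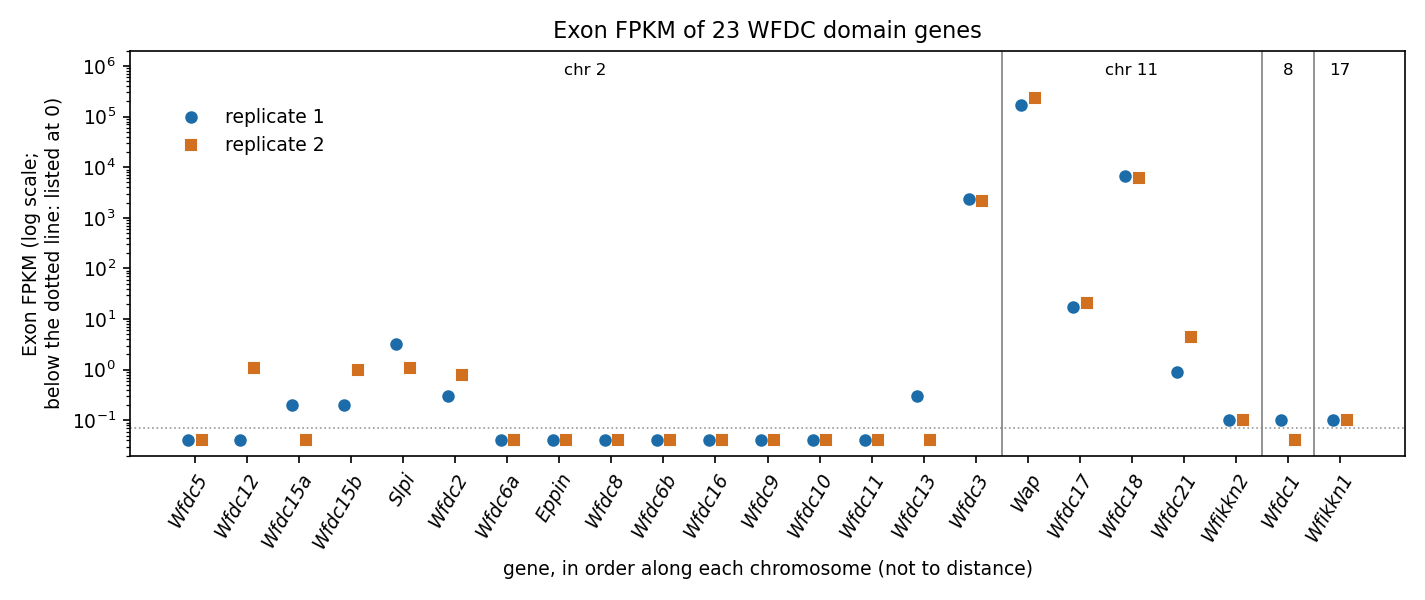
Exon FPKM (log scale) of the 7 members and 16 other WFDC genes in their order along each chromosome, not to distance, with circles for replicate 1 and squares for replicate 2; points below the dotted line were listed at 0. *Wfdc3* stands alone at one end of the chromosome 2 cluster, and *Wap* and *Wfdc18* stand above *Wfdc17* and *Wfdc21* on chromosome 11.

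Of the 16 other WFDC genes, 2 averaged at least 1 FPKM in exons, namely *Wfdc17* and *Wfdc21*, compared with 48% of all genes. In both mice 9 were listed at 0, compared with 30.2% of all genes. These 9 were *Wfdc5*, *Wfdc6a*, *Wfdc6b*, *Wfdc8*, *Wfdc9*, *Wfdc10*, *Wfdc11*, *Wfdc16* and *Eppin*, the last of which encodes an inhibitor of epididymis and testis. *Wfdc15b* had 0.2 and 1.0, *Wfdc13* had 0.3 in replicate 1 and *Wfdc15a* had 0.2 in replicate 1, the latter 2 being listed at 0 in replicate 2. *Wfikkn1* and *Wfikkn2*, which encode larger secreted proteins that bind growth factors of the myostatin group, were at 0.1 in each mouse. The introns of all 16 genes were listed at 0. Kunitz-type inhibitor genes that lie in the chromosome 2 cluster were similarly low, with 0.4 for *Spint3* in replicate 2 and *Spint4* and *Spint5* listed at 0 in both mice.

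Introns were examined because reads on them derive from RNA that has not been spliced. The intron FPKM of *Wap* was 121.6 and 148.1, the sixth highest by mean among all genes. *Wfdc18* introns had 18.3 and 4.7, a mean of 11.5 ± 9.62 (SD, n = 2) and rank 46. *Wfdc3* introns had 4.4 and 3.7, a mean of 4.05 ± 0.495 (SD, n = 2) and rank 150. *Wap* was highest in both mice, and *Wfdc18* was above *Wfdc3* in both, but by a margin that differed between them. The introns of *Slpi*, *Wfdc2*, *Wfdc12* and *Wfdc1* were listed at 0 in both mice. By the same limit of 3 reads, a count of 0 allows 0.193 (*Slpi*) and 0.501 (*Wfdc12*) FPKM in replicate 1. In replicate 2 it allows 0.378 and 0.979. An intron value of 1 read is 0.00491 and 0.00961 FPKM in *Wfdc1* and 0.0198 and 0.0387 in *Wfdc2*. Such values round to 0 at the 1 decimal deposited. The introns of *Wfdc1* and *Wfdc2* therefore need not have a count of 0, and no limit is given for them. Among the 9845 genes that averaged at least 1 FPKM in exons, introns were listed at 0 in both mice for 3.15%, and *Slpi* was one of them.

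The ratio of exon to intron FPKM was highest for *Wap*, at 1422 and 1585 in the 2 mice. For *Wfdc3* it was 527 and 589, a mean of 558 ± 43.9 (SD, n = 2). For *Wfdc18* it was 372 and 1297, a mean of 835 ± 655 (SD, n = 2), so this gene lay below *Wfdc3* in replicate 1 and above it in replicate 2. *Wap* therefore exceeded both other genes in each mouse, while *Wfdc18* and *Wfdc3* could not be placed in order. The median ratio of mean exon FPKM to that of introns was 15.3 over 9535 genes, and *Wap*, *Wfdc18* and *Wfdc3* were at the 99.96th, 99.79th and 99.78th percentiles. Among the 20 genes at or above 1000 FPKM in exons, which are the more comparable set, they ranked 2, 7 and 8.

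**Figure D3:**
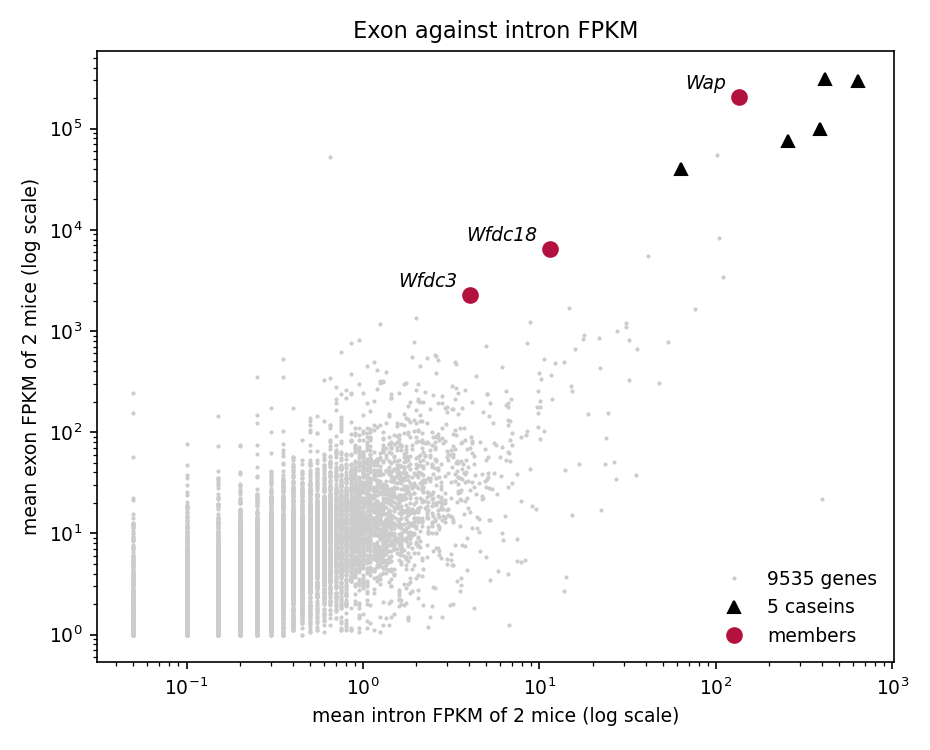
Mean exon FPKM against mean intron FPKM of 9535 genes, both on log scales, with circles for the members above 0 in introns and triangles for the 5 caseins. *Wap*, *Wfdc18* and *Wfdc3* lie along the upper left edge of the cloud, with ratios of mean exon FPKM to that of introns far above the median of 15.3.

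The margin between members was compared between exons and introns. In exons, *Wap* exceeded *Wfdc18* 25.4-fold in replicate 1 and 38.5-fold in replicate 2. In introns the same pair was 6.64-fold and 31.5-fold apart. *Wap* exceeded *Wfdc3* 74.6-fold and 108-fold in exons and 27.6-fold and 40.0-fold in introns. *Wfdc18* exceeded *Wfdc3* 2.94-fold and 2.80-fold in exons, the closest agreement between the mice of any of these ratios (2.87 ± 0.0966, SD, n = 2). In introns, *Wfdc18* was 4.16-fold and 1.27-fold above *Wfdc3*. The distance of *Wap* from *Wfdc3* was thus larger in exons than in introns in both mice, and the ranges over the mice did not overlap.

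*Wap* made up 95% and 96.6% of the exon FPKM of the 7 members, and 84.3% and 94.6% of their intron FPKM. The 7 members together held 21.3% of the summed exon FPKM in replicate 1 and 13.6% in the other mouse, a mean of 17.5% ± 5.48 (SD, n = 2). Counted as estimated reads, which do not weight short genes upward, they held 8.56% and 6.17% of exon reads, of which *Wap* alone held 8.09% and 5.94%. The share fell in replicate 2 although the *Wap* FPKM was higher there. The estimated *Wap* exon reads were lower there, at 670270 against 966061 in replicate 1. The exon FPKM of all genes summed to 852961 and 1788119 in the 2 mice, of which the 5 caseins held 44.4% and 70.8%. Without the caseins, *Wap* was 36.5% of the remaining sum in replicate 1 and 44.9% in replicate 2. The direction of the difference in the *Wap* share between the mice was therefore turned by whether the caseins were counted.

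*Wap* and the caseins, the micelle-forming proteins of milk, differed in how they stood in the 2 mice. *Csn2* (beta-casein) had exon FPKM of 108555 and 481937, and *Csn1s2a* had 168240 and 455483. *Wap* was 1.59 times *Csn2* in replicate 1 and 0.487 times in replicate 2, and against *Csn1s2a* the ratios were 1.03 and 0.515. It was above *Csn1s1* (3.60 and 1.56), *Csn1s2b* (4.48 and 2.07) and *Csn3* (11.2 and 3.66) in both mice, by less in replicate 2 each time. In introns *Wap* was lower than *Csn2*, at 0.302 and 0.169 times, lower than *Csn1s2a*, at 0.423 and 0.273 times, lower than *Csn1s1*, at 0.467 and 0.284 times, and lower than *Csn1s2b*, at 0.740 and 0.425 times. It was above *Csn3* in introns too, at 3.79 and 1.58 times. The ratio of *Wap* to each of the 5 caseins was higher in exons than in introns in both mice. Among whey proteins, *Wap* was 20.5 and 28.4 times *Lalba* (alpha-lactalbumin, a subunit of lactose synthase) and 2.73 and 5.03 times *Trf* (transferrin). *Wfdc18* was near *Lalba*, at 0.805 and 0.738 times.

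The difference between the mice was expressed as log2 of replicate 2 over replicate 1, on FPKM + 1 for exons and FPKM + 0.1 for introns, and with 1 genotype it describes the spread between replicates. In exons it was 0.44 for *Wap*, -0.16 for *Wfdc18*, -0.09 for *Wfdc3* and -1 for *Slpi*. None of these 4 members with a mean of at least 1 was more than 2-fold apart on this scale (0 of 4), compared with 5.9% of 9845 genes, 4.82% being lower and 1.08% higher in replicate 2. *Slpi* lay exactly at 2-fold, and this count depended on the pseudocount. With 0.1 in place of 1 its log2 ratio was -1.46, so that 1 of the 4 passed, as did 1092 genes in place of 581. As deposited, *Slpi* was 2.91-fold higher in replicate 1. Its FPKM intervals from counting error alone, 2.14 to 4.65 and 0.365 to 2.62, overlapped, which does not show that the values agree. The median over all genes was -0.08. *Wfdc2* (0.47), *Wfdc12* (1.07) and *Wfdc1* (-0.14) did not reach a mean of 1 and rest on at most 4 reads a mouse.

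By contrast, all 5 caseins were more than 2-fold higher in replicate 2 (log2 ratios of 1.44 to 2.15) on the same scale. Across 9725 genes the exon log2 ratio had a Spearman correlation of -0.658 with the GC content of the exons, both mice having been measured in 1 library each. The exon GC content was 52.8% in *Wap*, 45.8% in *Wfdc18* and 54.4% in *Wfdc3*, and from 36.95% to 43.5% in the caseins. With the relation to GC content removed by a lowess fit, the log2 ratio was 0.67 for *Wap*, -0.29 for *Wfdc18*, 0.24 for *Wfdc3* and from 1.10 to 1.87 for the caseins. *Wap* thus kept its direction, *Wfdc3* did not, and the caseins remained further apart between the mice than *Wap* on either scale. The part of GC content in these differences was not tested beyond this correction.

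The intron reads of *Wfdc18* were the exception among the members. Its intron FPKM was 3.89-fold higher in replicate 1, a log2 ratio of -1.94, whereas its exons differed by -0.16. The values correspond to an estimated 330 reads in replicate 1 (16.4 to 20.4 FPKM) and 43 in replicate 2 (3.38 to 6.29 FPKM), and these intervals do not overlap. *Wap* introns (0.28) and *Wfdc3* introns (-0.24) differed less, and the *Wfdc3* intervals, 4.02 to 4.81 and 3.22 to 4.24 FPKM, overlapped. Of the 3 members that averaged at least 0.5 FPKM in introns, 1 was therefore more than 2-fold apart, compared with 5.9% of 4220 genes, and 3.53% of them were lower in replicate 2. Among the 118 genes that averaged at least 5 FPKM in introns, 26 were more than 2-fold apart in either direction. Of the 118, 11 (9.32%) were more than 2-fold lower in replicate 2, and *Wfdc18* had the third largest drop. Of these 11 genes, 8 had exon log2 ratios within 0.5 of 0, so *Wfdc18* was not alone in this. No other annotated gene overlaps *Wfdc18*, and the source of the difference was not tested.

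**Figure D4:**
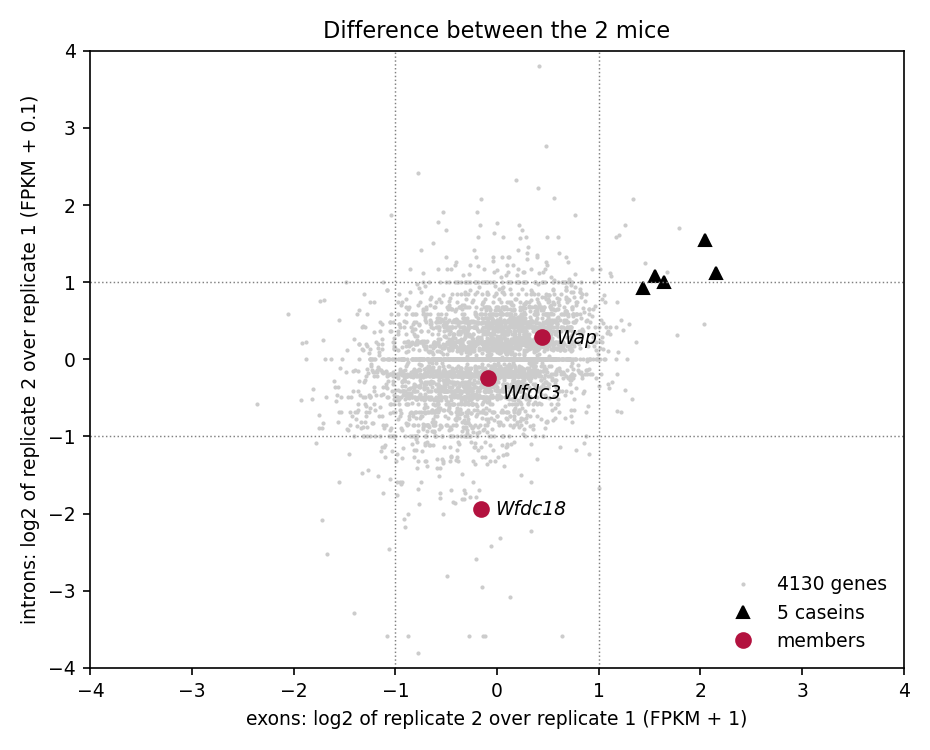
Log2 of replicate 2 over replicate 1 in exons (FPKM + 1) against introns (FPKM + 0.1) for 4130 genes that passed both filters on low values, 6 of which lie outside the axes; circles mark members, triangles mark the 5 caseins and dotted lines mark 2-fold. *Wap* and *Wfdc3* lie within 2-fold on both axes, *Wfdc18* is at -1.94 in introns and -0.16 in exons, and the caseins are between 1.44 and 2.15 in exons.

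The 3 genes nearest to each member were found by the Euclidean distance over 4 log2 values, exons and introns in each of the 2 mice, which is a description over 2 libraries. *Wap* was nearest to *Csn1s2a* (distance of 2.44), *Csn1s2b* (2.74) and *Trf* (2.84). *Wfdc18* was nearest to *Wfdc3* (2.98), *Cidea* (2.98), a lipid droplet protein gene, and *Mfge8* (3.58), which encodes a milk fat globule protein. *Wfdc3* was nearest to *Cel* (1.83), the gene for the bile salt-stimulated lipase of milk, *Mfge8* (2.01) and *Cd36* (2.46), a fatty acid receptor gene. *Slpi* had far closer neighbors, *Mapk8ip1* (0.159), *Notch4* (0.161) and *Ap5b1* (0.195), since many genes share low exon values with introns listed at 0. The highest members had no gene at a comparably small distance.

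The proteases that *Slpi* is known to block were examined with it. *Elane* (neutrophil elastase) and *Ctsg* (cathepsin G) were listed at 0 in both mice. Of 6 serine protease genes of leukocytes, 2 averaged at least 1 FPKM in exons, compared with 48% of all genes. They were the mast cell proteases *Mcpt4* (2.1 and 1.0) and *Cma1* (1.5 and 1.3). *Tpsb2* was at 0.6 and 0.7. Among 11 other extracellular protease inhibitor genes, 8 reached a mean of 1, compared with 48% of all genes. The highest were *Cst3* (cystatin C) at 216.4 and 216.0, *Spint2* at 50.3 and 41.4 and *Timp2* at 41.9 and 38.6. These were above *Slpi* and the other low members and far below *Wfdc3* in both mice.

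Cell types that can make WFDC proteins were examined by marker genes. The counts below are to be read beside the 48% of all genes that reached a mean of at least 1 FPKM in exons. Neutrophil markers were low, with summed exon FPKM of 1.4 and 3.2 and 1 of 5 genes at a mean of at least 1. That gene was *S100a8*, at 0.5 and 2.5, and *S100a9* was at 0.9 and 0.7. *Ly6g*, *Mpo* and *Camp* were listed at 0. Macrophage markers (5 of 5 at a mean of at least 1) summed to 92.0 and 63.9, led by *Lyz2*, *C1qa* and *Csf1r*. Most of the difference between these sums lay in *C1qa* (44.8 and 19.6), while *Lyz2* was at 35.5 and 36.7. Fibroblast markers (6 of 6) summed to 172.8 and 165.8, led by *Dcn*, *Col3a1* and *Col1a1*. These close sums held opposite differences between the mice. *Dcn* was at 42.9 and 78.4, whereas *Col3a1* was at 71.2 and 43.6 and *Col1a1* at 23.5 and 11.2. Myoepithelial markers (5 of 6, with *Acta2* listed at 0) summed to 113.5 and 72.6, and endothelial markers (3 of 4) to 47.5 and 40.6. Adipocyte markers (4 of 4) summed to 628.5 and 715.2. Their sum came largely from *Fabp4* (501.7 and 564.0), while *Plin1* was at 7.8 and 2.6. The GC correction shrank several of these differences. The log2 ratio went from -1.15 to -0.45 for *C1qa*, from -1.01 to -0.33 for *Col1a1* and from -1.29 to -0.46 for *Plin1*. It went from -0.69 to -0.49 for *Col3a1* and from 0.85 to 0.62 for *Dcn*. Plasma cell markers (2 of the 2 found) summed to 110.0 and 91.5, and keratinocyte markers (0 of the 3 found at a mean of 1) to 0.8 in each mouse. The part of these cells in the levels of the members was not tested, and in whole tissue fewer cells of a type and less RNA per cell cannot be told apart.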

How the data were processed

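Total RNA-seq of mammary glands from 2 wt/Wap-Tbrg4 mice at L10 was analysed. The authors isolated RNA with a PureLink kit and sequenced stranded total RNA libraries (TruSeq) on an Illumina HiSeq instrument. Reads were aligned to mm10 by STAR, and HTSeq counted them on collapsed exons of UCSC known genes and on the intervening introns. The deposited values are FPKM, generated by the authors with DESeq2 and rounded to 1 decimal, for 20550 genes, of which 35 without a usable symbol were left out here. The versions, the strand setting, the handling of multi-mapping reads and the scaling total are not given in the sources used here. Because FPKM divides by length, short genes weigh more in shares of FPKM than in shares of reads.

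FPKM were used as deposited. Each mouse is reported alone and with the mean ± SD. With 1 group, no test was made. Log2 ratios between the mice used a pseudocount of 1 for exons (mean of at least 1) and 0.1 for introns (mean of at least 0.5). Positions, lengths, GC content and promoters were taken from RefSeq on GRCm38.p6, the assembly that mm10 names, and matched 98.2% of genes. Depth was estimated from whole-read steps of low values, and the estimate and the GC correction were tested on simulated data. Copies of exons were searched with BLAST 2.17.0. Calculations ran in Python 3.11.15 (scipy 1.17.1, numpy 2.4.6, statsmodels 0.14.6, pandas 2.3.3), with plots by matplotlib 3.10.9.

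The members and gene lists were chosen with earlier results of these data known. Named genes were drawn from the 7 members, the caseins and other WFDC genes above 0 in exons and the 3 highest genes of every other list. The 3 genes nearest to each member that averaged at least 1 FPKM in exons were also named. Not every gene of the other lists that met this rule is named. Genes listed at 0 that are named as known protease targets or defining markers, and *Gapdh*, *Krt8*, *Krt18* and *Plin1*, were added after their values were seen. Alternatives to the scaling, pseudocount, filter, centring and mean were tried, and each mouse was left out in turn. The 12 ChIP-seq samples are not analysed here.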

Additional observations from a re-analysis of the deposited data

How the results depend on the processing

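In all, 106 alternatives were computed for 31 results. Of these, 86 left the result about the same, 19 moved it and 1 reversed it. About the same meant within the spread between the mice for a value and within 1.5 times for a count. Log2 ratios between the mice have no such spread, and only small shifts in them counted as the same. Centring (0.44 to 0.52 for *Wap*) was such a shift, and the GC correction of *Wfdc18* (-0.16 to -0.29) was not. Scaling each mouse to a sum of 1000000 gave mean exon values of 5694 for *Wfdc18* and 1968 for *Wfdc3*, and, with introns scaled to their own sum, mean intron values of 13692 for *Wap*, 1229 for *Wfdc18* and 417.0 for *Wfdc3*. The 581 genes more than 2-fold apart in exons numbered 186 once GC content was corrected for, 231 when a mean of 10 was required and 1092 with 0.1 as the pseudocount, and the 249 in introns became 66 with a pseudocount of 1. Leaving the caseins out of the sum raised the mean share of *Wap* from 16.7% to 40.7% and that of the 7 members from 17.5% to 42.5%. The log2 ratio of *Wfdc3* between the mice changed sign, from -0.09 to 0.24, with the GC correction, which was chosen after seeing the data. With 2 mice, leaving either out stays within 1 SD of the mean by construction. The same holds for the geometric mean and for the ratio of means. These settings are part of the 86, so that number does not measure how stable the results are. No paired analysis was possible because the files hold only 1 group and no test was made. Depth limits *Slpi*, *Wfdc2*, *Wfdc12* and *Wfdc1*, each with at most 28 estimated exon reads in a mouse. The causes of these changes were not tested.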
